A study of Mus musculus with 2 samples.

Results

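The genes described here are 10 genes of bone morphogenetic protein (BMP) signalling, namely the ligands Bmp2 and Bmp4, the receptors Bmpr1a and Bmpr2, the intracellular transducers Smad1 and Smad5, and the Id genes Id1, Id2, Id3 and Id4. They were chosen by symbol, and all 10 were found in both libraries among 23320 shared gene symbols, of which 18742 were above 0 in at least 1 library. Primordial germ cells (PGCs), the embryonic precursors of eggs and sperm, were sorted from E13.5 Oct4-deltaPE-GFP mouse embryos and infected at an MOI of 5 with a control lentivirus (Control) or with a virus that drives Klf9 from an EF promoter (Klf9-OE). After 1 day on gelatin-coated plates, 1 RNA-seq library was made for each condition, so no difference has a replicate check. The labels describe a medium with bFGF and the paper describes the culture as lacking it, for both libraries alike. Gonads of male and female embryos were dissected, and which of the study's control vectors was used for this library is not given in the sources used here.

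BMP ligands bind a complex of type I and type II serine/threonine kinase receptors, which phosphorylates Smad1, Smad5 and Smad9. These join Smad4 in the nucleus and activate target genes, of which Id1, Id2 and Id3 are the best known. Id proteins contain a helix-loop-helix but no DNA-binding region, and they hold back E proteins, their partners, from DNA. In the mouse embryo, BMP4 from the extra-embryonic ectoderm is needed for PGCs to form, and Id genes are widely expressed in pluripotent stem cells, where BMP with LIF maintains self-renewal.

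Values are RPKM, read numbers scaled to transcript length and library depth, with the 95% interval that Cufflinks gives for the estimate within a library. Intervals are called apart when they do not overlap between the libraries. Log2 fold changes are those of log2(RPKM + 0.1) in Klf9-OE minus Control, so fold changes at low RPKM come out too small. The RPKM of Klf9, the gene overexpressed, was 2.27 in Control (95% interval 1.97 to 2.57) and 80.8 in Klf9-OE (77.0 to 84.5).

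The 12 PGC markers examined, among them Ddx4, Dazl and Pou5f1, were all above an RPKM of 1, and their RPKM summed to 1710 in Control and 1433 in Klf9-OE. In 9 of them the intervals were apart and lower in Klf9-OE, and in 1, Dazl, they were apart and higher, where 20.2% of all genes with an RPKM of at least 1 were apart and lower and 14.8% apart and higher. Markers of gonadal cells were present at low levels. Those of supporting and steroidogenic cells (9 of 9 found) summed to 22.9 in Control and 31.0 in Klf9-OE, with Star listed at 0 in Control, which can be a failed estimate. Of the 7 with an RPKM of at least 1, 4 were apart and higher, Star included. Sox9 alone was apart and lower (2.04 in Control and 1.09 in Klf9-OE). Those of mesenchyme (6 of 7) summed to 17.4 and 25.5, with Lum listed at 0 in Control, and those of endothelium (5 of 5) to 3.46 and 6.31, with Emcn listed at 0 in Klf9-OE. The remaining mesenchyme marker, Pdgfra, shared a row with Mir7025 and had 3.05 in Control and 2.50 in Klf9-OE. The endothelial difference came from Cdh5, with 1.995 in Control and 5.09 in Klf9-OE, the other 4 markers summing to 1.47 and 1.23, and Tek was apart and lower (0.735 and 0.439). Macrophage markers (5 of 5) summed to 5.11 and 5.33, with Lyz2 listed at 0 in Klf9-OE. In mesenchyme, 4 of the 5 markers with an RPKM of at least 1 were apart and higher in Klf9-OE. Haemoglobin rows, which mark red blood cells, were lower in Klf9-OE. The pair of rows shared by Hba-a1 and Hba-a2 had 19.0 and 17.6 in Control and 3.90 and 3.40 in Klf9-OE, and the row of Hbb-b1 and Hbb-bs had 16.4 and 3.997. The part of these cells in the levels below was not tested. In such bulk samples, fewer cells of a type and less RNA per cell cannot be told apart.

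By RPKM, Id1, Id3 and Id4 were higher in Klf9-OE and Bmp2, Smad1 and Smad5 were lower, each with intervals apart, while Bmp4, Bmpr1a, Bmpr2 and Id2 overlapped. None of the 10 genes reached a 2-fold difference. In comparison, 12565 genes reached an RPKM of 1 in either library, and of these 3.93% were higher by 2-fold or more and 3.79% lower by as much (9.82% and 9.43% of the 18742 genes above 0). Intervals were apart and higher for 3 of the 10 genes, against 14.8% of the 12565 genes and 11.2% of the 18742. They were apart and lower for 3, against 20.2% and 14.4%. The higher level of Id1 and Id3 depends on the measure, since the reads implied by their intervals pointed the other way, as given with the gene models. By RPKM, the median log2 fold change was 0.53 over the 4 Id genes (-0.077 by implied reads), -0.35 over the 6 ligands, receptors and Smads, and -0.026 over the 12565 genes.

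**Figure D1:**
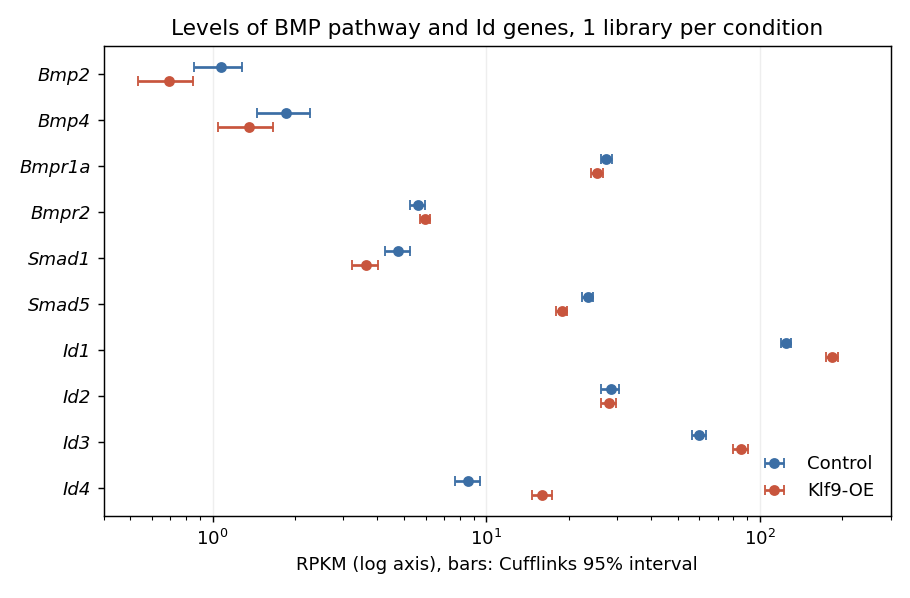
RPKM (log axis) of the 10 genes in the Control library (blue) and the Klf9-OE library (red), with Cufflinks 95% intervals as bars. Id1, Id3 and Id4 lie to the right in Klf9-OE and Bmp2, Smad1 and Smad5 to the left, with bars apart, and the bars of Bmp4, Bmpr1a, Bmpr2 and Id2 overlap.

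Id1, Id3 and Id2 were the most abundant of the 10 genes. In Control the order was Id1, Id3, Id2, Bmpr1a, Smad5, Id4, Bmpr2, Smad1, Bmp4 and Bmp2, and it was the same in Klf9-OE. The intervals of the neighbours Id2 and Bmpr1a overlapped in both libraries, and those of Bmpr2 and Smad1 overlapped in Control alone. Id1 ranked 625th by RPKM among the 18742 genes in Control and 368th in Klf9-OE. Bmp2, the lowest, ranked 11944th and 12833rd.

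Id1 (chromosome 2, 152736251 to 152737410 of mm10, forward strand, 2 exons) was the most abundant of the family. Its RPKM was 124.8 in Control (119.8 to 129.8) and 183.6 in Klf9-OE (174.2 to 193.0), a ratio of 1.47 and a log2 fold change of 0.56. Id3 (chromosome 4, 136143822 to 136145392, forward strand, 3 exons) had an RPKM of 59.9 in Control (56.5 to 63.3) and 85.1 in Klf9-OE (80.0 to 90.2), a ratio of 1.42 and a log2 fold change of 0.51. Id1 and Id3, which act redundantly in vascular and neural development, thus differed by a similar factor, and their intervals were apart. The log2 fold change of Id1 exceeded that of 92.4% of the 12565 genes, and that of Id3 exceeded 91.5%. By implied reads, both genes were lower in Klf9-OE, with log2 ratios of -0.996 for Id1 and -0.44 for Id3.

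Id4, which in the postnatal testis marks spermatogonial stem cells, had the lowest level of the family and the highest ratio. Its RPKM was 8.57 in Control (7.68 to 9.45) and 16.0 in Klf9-OE (14.7 to 17.3), a ratio of 1.87 and a log2 fold change of 0.89, above that of 95.8% of the 12565 genes. Id2 (chromosome 12, 25093799 to 25096092, reverse strand, 3 exons), a target of Myc as well as of BMP, did not share this direction. Its RPKM was 28.5 in Control (26.3 to 30.7) and 28.0 in Klf9-OE (26.3 to 29.8), and the intervals overlapped. Its log2 fold change was -0.022, and the sign turned when RPKM were rescaled to the same upper quartile (0.0071), to a median ratio of 1 (0.0058) or to the same sum (0.040).

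Summed over the family, the RPKM of the Id genes was 221.7 in Control and 312.8 in Klf9-OE. Id1 made up 56.3% of the sum in Control and 58.7% in Klf9-OE, and Id3 made up 27.0% and 27.2%. The share of Id2 was 12.8% in Control and 8.96% in Klf9-OE, and that of Id4 was 3.86% and 5.12%. The 3 E proteins bound by Id summed to 132.4 in Control and 121.4 in Klf9-OE, so that the Id sum was 1.67 times the E protein sum in Control and 2.58 times in Klf9-OE. The Id sum and its ratio to the E protein sum rest on Id1 and Id3. Both turned when Klf9-OE levels were taken as the Control RPKM times the ratio of implied reads. The Id sum in Klf9-OE was then 152.3 and 1.28 times the E protein sum, with 41.1% from Id1 and 29.0% from Id3. Of the E proteins, Tcf3 had an RPKM of 97.8 in Control (94.8 to 100.8) and 84.1 in Klf9-OE (81.5 to 86.6), with intervals apart. The intervals of Tcf4 and Tcf12 overlapped.

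The tables give each gene either as its RefSeq model or as a model that Cufflinks assembled in that library, so the length behind an RPKM can differ between the libraries. Bmp2, Bmp4, Smad1 and Smad5 had the RefSeq model in both libraries. Id1 and Id3 had it in Control alone. Over the 1192 genes with this pattern, the median log2 fold change was 0.073, and the intervals were apart and higher in Klf9-OE for 25.2% and apart and lower for 11.9%. The log2 fold changes of Id1 and Id3 exceeded those of 83.5% and 81.3% of these genes. The bounds of Id1 and of Id3 were the same in both libraries.

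Id2, Bmpr2 and Id4 had an assembled model in Control and the RefSeq model in Klf9-OE, a pattern with a median log2 fold change of -0.099 over 2070 genes, of which 7.54% were apart and higher and 28.7% apart and lower. The log2 fold change of Id4 exceeded that of 98.3% of them, that of Bmpr2 80.0% and that of Id2 63.4%. Bmpr1a had an assembled model in both libraries, as did 5971 genes with a median of -0.022. The part of the gene models in these differences was not tested.

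The width of an interval gives a second measure, since it implies a number of reads if counting error alone sets the width. Klf9-OE held 1.22 such reads for each Control read (median over 3548 genes), and ratios of implied reads were divided by this depth ratio. For genes with the RefSeq model in both libraries, the log2 ratio of implied reads minus that of RPKM had a median of -0.00042 (quartiles -0.026 and 0.012). With an assembled model in Klf9-OE alone the median was -0.39 (-1.03 and -0.12), and with one in Control alone it was 0.32 (0.012 and 0.95), so implied reads too moved with the model.

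For Id1 and Id3 the measures went in opposite directions. Id1 had 2509 implied reads in Control and 1535 in Klf9-OE, a ratio of 0.501 after correction for depth, against 1.47 by RPKM. Id3 had 1234 and 1109, a ratio of 0.737 against 1.42. Id2 had a ratio of 1.22 and Bmpr2 of 1.85, where RPKM gave 0.985 and 1.06, and Bmpr1a had 0.622 against 0.922. The direction of Id1 and Id3 was thus not the same by both measures, and which of them reflects the transcripts present was not tested. Among the cell type markers, Dazl had a ratio of 0.839 against 1.08 by RPKM, Ifitm3 had 1.64 against 0.827 and Wt1 had 0.973 against 1.65.

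**Figure D2:**
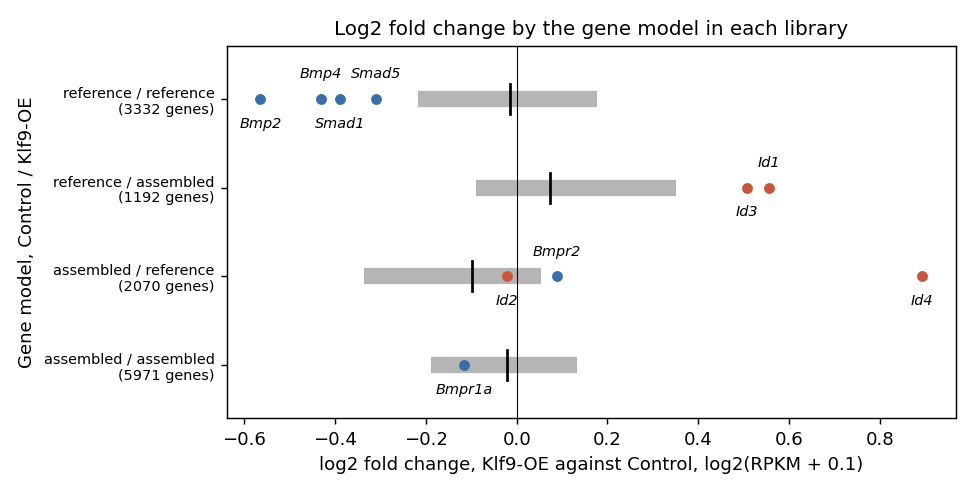
Log2 fold change of the 10 genes (points, Id genes in red, others in blue) by the kind of gene model in Control and in Klf9-OE. Grey bars run from the first to the third quartile of each class, over genes that reached an RPKM of 1 in either library, and black ticks mark their medians, which are -0.015, 0.073, -0.099 and -0.022 from top to bottom. By RPKM, Id1, Id3, Id4 and Bmpr2 lie to the right of the bar of their own class, and Bmp2, Bmp4, Smad1 and Smad5 lie to the left of theirs.

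At Id4 the bounds themselves differed. The row named Id4 ran from 48261045 to 48264699 on chromosome 13 (forward strand, 3 exons) in Control and from 48261427 to 48264036 in Klf9-OE. There, 2 unnamed loci lay at the ends of the Control row, from 48261108 to 48261476 with an RPKM of 35.5 (30.2 to 40.8) and from 48264688 to 48264890 with 12.1 (5.10 to 19.2). The implied reads were 374 for Id4 in Control, 578 for Id4 in Klf9-OE and 190 for the 2 unnamed loci together. After correction for depth, the ratio was 1.27 for the named row and 1.68 with the unnamed loci, against 1.87 by RPKM. Id4 was higher in Klf9-OE by each of these 3 ratios, which share reads, and the size of the difference depended on the row taken. The antisense gene A330033J07Rik, whose first exon overlaps part of Id4 on the opposite strand, had an RPKM of 2.28 in Control (1.85 to 2.71) and was listed at 0 in Klf9-OE. Its 112 implied reads in Control entered none of the ratios for Id4. The first unnamed locus of Klf9-OE lies within the bounds of this gene, and its reads did enter the ratio of 1.68. That ratio thus treats the libraries unequally. The library kit does not mark strand, so reads of the overlapping genes cannot be told apart.

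Of the 10 genes, 8 were in the RefSeq promoter table (GRCm38.p6), Id1 and Bmp2 being absent from it. The sequences of the Id genes before their starts are shown because Id3 and Id4 had intervals apart by RPKM and those of Id2 overlapped. By implied reads, Id3 was lower in Klf9-OE. The GC box GGGCGG, which Sp and Klf factors bind, was found on either strand in the 250 bases before the start of all 8, and in 32.7% of the 32851 promoters of the table. The element GGCGCC, found in BMP-responsive Smad sites, was present in 5 of 8 (Bmpr1a, Bmpr2, Id2, Id4 and Smad5) and in 9.59% of the promoters. The CACCC box CCACCC was present in Id2 and Id3 and in 28.1% of the promoters. These shares are over all promoters of the table, not matched for expression or base content, so they do not measure enrichment. In the lines that follow, capitals mark matches to the GC box in the first 3 sequences, which are 30-base windows around the box nearest the start, to GGCGCC in the next 2, and to both motifs in the last. The 2 boxes of Id3 share bases, and the GGCGCC of Id4 directly adjoins a GC box.
Id2, GC box, chr12:25096093-25096122, reverse strand: acataaaagacgccCCGCCCggctcgcgct
Id3, GC box, chr4:136143720-136143749, forward strand: ggtgcccaGGGCGGGCGGgggtggaccctt
Id4, GC box, chr13:48261051-48261080, forward strand: cgcgcgctggccCCGCCCccaaggcgcgcg
Id2, GGCGCC, chr12:25096306-25096335, reverse strand: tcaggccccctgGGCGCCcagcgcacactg
Id4, GGCGCC, chr13:48260956-48260985, forward strand: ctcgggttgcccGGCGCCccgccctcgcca
Id4, 250 bases before the start, chr13:48260866-48261115, forward strand: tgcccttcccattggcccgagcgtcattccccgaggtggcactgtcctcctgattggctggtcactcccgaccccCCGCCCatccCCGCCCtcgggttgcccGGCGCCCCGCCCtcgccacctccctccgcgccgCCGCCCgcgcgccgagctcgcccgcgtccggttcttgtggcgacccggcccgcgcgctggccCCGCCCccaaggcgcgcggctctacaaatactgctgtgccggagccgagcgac

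In the 250 bases before the start, Id4 held 5 GC boxes, Id3 held 2 and Id2 held 1. Counts are given for these Id genes alone, not for the other genes with a box, and Id1 is absent from the promoter table. GC boxes were also found at Smad1 and Smad5, which were lower in Klf9-OE. Whether the number of boxes goes with the level was not tested, and the few genes counted cannot show it. The start used for Id4 follows 48261115, but its row began at 48261045 in Control and at 48261427 in Klf9-OE. The GC box window of Id4 thus lies inside its Control row. The GGCGCC window of Id2 lies inside an unnamed Klf9-OE locus, from 25096293 to 25096466. The Id3 window lies inside the bounds of its GENCODE gene, which begins at 136143497. Both Id2 windows lie inside those of Id2, which reach 25097140 on the reverse strand. The matches are a description of the letters, and no binding was measured.

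The ligands Bmp2 and Bmp4 were the least abundant of the 10 genes and lower in Klf9-OE. Bmp2 (chromosome 2, 133552159 to 133562896, forward strand, 3 exons) had an RPKM of 1.07 in Control (0.854 to 1.28) and 0.690 in Klf9-OE (0.532 to 0.849), a ratio of 0.646 and a log2 fold change of -0.56. The intervals were narrowly apart, and they overlapped after each rescaling applied to them and when the Klf9-OE interval was widened by the square root of 2. That widening stands for reads counted in pairs. Among genes with a whole number of 1 to 9 implied reads (within 0.06), the number was even in 87.6% of 1817 in Klf9-OE and in 36.1% of 2177 in Control, and the cause was not tested. Bmp4 (chromosome 14, 46383520 to 46390599, reverse strand, 4 exons) had an RPKM of 1.86 in Control (1.46 to 2.26) and 1.35 in Klf9-OE (1.05 to 1.66), and the intervals overlapped. The implied reads of Bmp2 were 98.5 and 76.0, and those of Bmp4 were 85.9 and 77.2, the fewest among the 10 genes.

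The other BMP ligands listed did not stand apart. Of the 14 ligands of the list, 4 had an RPKM of at least 1, and apart from Bmp2 their intervals overlapped. The most abundant was Bmp7, a ligand known from kidney and eye development, with 5.08 in Control (4.62 to 5.55) and 4.53 in Klf9-OE (4.13 to 4.92).

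The receptors did not differ beyond their intervals. Bmpr1a (chromosome 14, 13 exons, reverse strand), the main type I receptor of BMP2 and BMP4, had an RPKM of 27.5 in Control (26.3 to 28.7) and 25.4 in Klf9-OE (24.1 to 26.7). Bmpr2 (chromosome 1, 59764279 to 59878081, forward strand, 13 exons), the type II receptor that phosphorylates the type I receptor, had 5.62 (5.26 to 5.98) and 5.98 (5.73 to 6.24). Of the other 7 receptors and co-receptors with an RPKM of at least 1, Rgma and Rgmb, membrane-anchored BMP co-receptors, were apart and lower. Rgma had 17.5 in Control (16.5 to 18.5) and 11.3 in Klf9-OE (10.5 to 12.1), and Rgmb had 10.03 (9.28 to 10.8) and 7.55 (6.98 to 8.11). Eng, an endothelial co-receptor, was listed at 0 in Control, which can be a failed estimate, and had 2.38 (2.05 to 2.71) in Klf9-OE.

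Smad1 and Smad5, which carry the BMP signal to the nucleus, were lower in Klf9-OE. Smad1 (chromosome 8, 79338398 to 79399468, reverse strand, 7 exons) had an RPKM of 4.78 in Control (4.28 to 5.28) and 3.62 in Klf9-OE (3.23 to 4.02), a log2 fold change of -0.39. Smad5 (chromosome 13, 56703010 to 56742378, forward strand, 7 exons) had 23.5 (22.4 to 24.6) and 18.9 (18.04 to 19.8), a log2 fold change of -0.31. Both pairs of intervals stayed apart with the Klf9-OE interval widened and after each rescaling applied to them. The ratio of implied reads corrected for depth was 0.757 for Smad1 and 0.809 for Smad5, beside RPKM ratios of 0.758 and 0.806. For genes with the RefSeq model in both libraries the measures nearly coincide, and the depth ratio was set on such genes. The likeness is therefore no separate evidence for the difference. Smad4, the partner shared with the activin branch, was apart and higher, with 19.5 in Control (18.4 to 20.6) and 23.1 in Klf9-OE (21.9 to 24.3). Its models were assembled with other bounds in both libraries, and its ratio of implied reads was 1.01 against 1.18 by RPKM. The intervals of Smad9 overlapped.

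**Figure D3:**
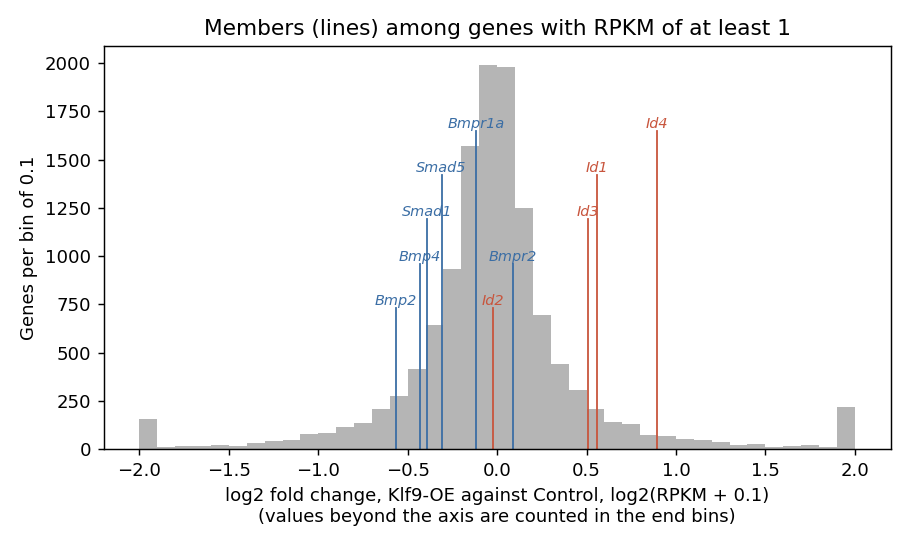
Number of genes (y axis) by log2 fold change (x axis, bins of 0.1) over the 12565 genes that reached an RPKM of 1 in either library, with the 10 genes drawn as labelled lines whose heights carry no value. Id1, Id3 and Id4 (red) lie in the right flank, while Bmp2, Bmp4, Smad1 and Smad5 (blue) lie in the left flank.

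Negative regulators of the pathway act inside and outside the cell. Of 9 intracellular inhibitors, all with an RPKM of at least 1, 2 were apart and higher, 1 was apart and lower and 6 overlapped, with a median log2 fold change of -0.00038, beside 14.8% and 20.2% apart and higher or lower over all genes at that level. Tob1, an antiproliferative protein that binds Smads, had 11.6 in Control (10.7 to 12.5) and 16.9 in Klf9-OE (15.9 to 17.9). Ppm1a, a phosphatase reported to act on Smads, had 20.5 (19.3 to 21.8) and 29.7 (27.9 to 31.4). By implied reads the ratio of Tob1 was 1.48 beside 1.46 by RPKM. Tob1 had the RefSeq model in both libraries, where the measures nearly coincide. That of Ppm1a was 0.818 against 1.44, with assembled models of other bounds in both libraries. Smurf1, a ubiquitin ligase for Smad1 and Smad5, had 14.1 (13.3 to 14.97) and 12.6 (11.9 to 13.2), and the most abundant of the list, the corepressor Ski, had 24.9 (23.5 to 26.2) and 23.7 (23.0 to 24.5). Their ratios of implied reads were 0.985 for Smurf1 and 2.41 for Ski, against 0.888 and 0.954 by RPKM.

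Of the 15 extracellular antagonists, 8 had an RPKM of at least 1, with a median log2 fold change of 0.16. Of these 8, 3 were apart and higher and 2 apart and lower, beside 14.8% and 20.2% over all genes at that level. Chordin (Chrd), which binds BMP2 and BMP4 and keeps them from receptors, had 9.47 in Control (8.75 to 10.2) and 5.10 in Klf9-OE (4.58 to 5.62). The related Chrdl1 had 2.21 (1.90 to 2.53) and 1.17 (0.973 to 1.37). Fstl1, a secreted glycoprotein and the most abundant of the list, had 16.9996 (16.1 to 17.9) and 22.2 (20.9 to 23.5). With an assembled model in Klf9-OE alone, as for Id1 and Id3, its ratio of implied reads was 0.623 against 1.31 by RPKM. Bmper and Twsg1, which bind BMPs together with chordin, had 3.10 (2.74 to 3.45) and 3.98 (3.62 to 4.35), and 10.7 (9.89 to 11.4) and 12.8 (12.2 to 13.46), respectively.

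Other genes known as BMP-Smad targets differed in either direction. Of the 8 others with an RPKM of at least 1, 1 was apart and higher, 4 apart and lower and 3 overlapped. Over all genes at that level, 14.8% were apart and higher and 20.2% apart and lower. By RPKM, the median log2 fold change of all 12 measured targets was 0.056. That median includes the Id genes, of which Id1 and Id3 were lower by implied reads. Msx2, a homeobox gene, was the one that was higher, with 1.91 in Control (1.53 to 2.29) and 3.04 in Klf9-OE (2.61 to 3.48). Its relative Msx1 had 4.21 (3.15 to 5.27) and 0.931 (0.670 to 1.19), a ratio of 0.221, but its row had an assembled model in Control alone, and its implied reads were 63.0 in Control and 51.2 in Klf9-OE. Atoh8, a helix-loop-helix factor, had 3.83 (3.32 to 4.35) and 1.91 (1.58 to 2.23), a ratio of 0.498 with the RefSeq model in both libraries. Gata2, a zinc finger factor, had 21.9 (20.8 to 22.9) and 14.1 (13.4 to 14.8), and Hey1, which Notch also activates, had 7.15 (6.43 to 7.87) and 5.77 (5.18 to 6.36). The intervals of Smad6 and Smad7, inhibitory Smads that BMP induces, overlapped.

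**Figure D4:**
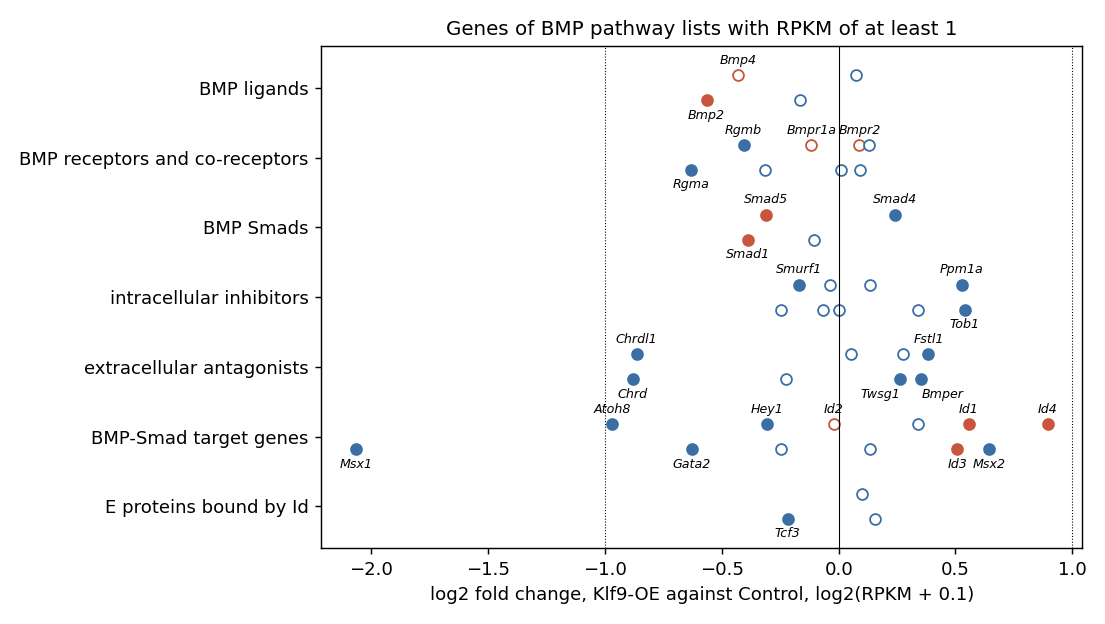
Log2 fold change (x axis) of the genes in each BMP pathway list (rows) that reached an RPKM of 1 in either library, with the 10 genes in red, others in blue, filled where the intervals are apart and open where they overlap, and dotted lines at a 2-fold difference on this scale. Points are offset within a row for legibility only, Eng is left out because it is listed at 0 in Control, and Msx1 is the one point beyond a dotted line.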

How the data were processed

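RNA-seq of 1 Control and 1 Klf9-OE library of PGCs was analysed. The authors aligned the reads, which are single-end, using TopHat2 and Bowtie (build mm10) and deposited the FPKM that Cufflinks estimated for each gene, with a 95% interval, which for single-end reads is RPKM. Versions are not given in the sources used here. Rows were matched by exact gene symbol and RPKM of rows with the same symbol were summed. Starts, counted from 0 in the files, are given from 1. Implied reads were computed as the square of 2 times the RPKM over the distance to the upper bound, and the depth ratio used genes with RefSeq models, 1 transcript start and more than 20 such reads. The files hold no read totals, so depth is known only in this form. With 1 library per condition no test was made, and intervals do not cover the difference between cultures.

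The genes and lists were chosen with earlier results of these data known. Named genes are the 10 members, Klf9 and, of each pathway list, the most abundant in Control and those with an RPKM of at least 1 and intervals apart. The list of erythroid markers is not reported here, apart from haemoglobin rows. Genes named to describe a locus or a cell type were added after their values were seen. Alternatives were pseudocounts of 0.01 and 1, 3 rescalings, the highest row per symbol, minimum RPKM, ratios of 1.5 and 4, and widened Klf9-OE intervals. Restriction to RefSeq models and the implied reads were added after the data were seen. The steps were tested on simulated data with a fixed length per gene and intervals built from counting error alone. Recovery of the implied reads was fixed by that construction. Assembled models were not simulated, so the test does not bear on genes whose model differs between the libraries. Calculations used Python 3.11.15, numpy 2.4.6, pandas 2.3.3 and matplotlib 3.10.9. Annotation was GENCODE M21.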

Additional observations from a re-analysis of the deposited data

Results flagged for a closer look

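Loci without a gene name within 1 kb of the 10 genes entered no comparison of RPKM, and only those at Id4 entered a ratio of implied reads. Of all these unnamed loci, 7 had a lower bound above 0 in Klf9-OE and no unnamed counterpart in Control. At Id4 they had an RPKM of 35.5 (30.2 to 40.8) and 12.1 (5.10 to 19.2), where the Id4 row of Control covers all of the former and part of the latter. At Id2, 3 loci upstream of the RefSeq start had an RPKM of 21.1 (8.89 to 33.4) from 25096293 to 25096466, 8.57 (3.04 to 14.1) from 25096538 to 25096750 and 4.81 (2.76 to 6.86) from 25096801 to 25097139 on chromosome 12, the last inside the first exon of the longer Id2 transcript of GENCODE. At Id3, a locus upstream from 136143057 to 136143402 on chromosome 4 had 2.92 (1.36 to 4.48). At Smad5, a locus inside the gene from 56726457 to 56726772 on chromosome 13 had 2.60 (0.922 to 4.28). Control in turn held unnamed loci at Bmpr2 (1.84, 1.07 to 2.61) and Id1 (1.25, 0.727 to 1.78) with none there in Klf9-OE. Unnamed loci numbered 15127 in Klf9-OE and 6482 in Control, so loci present in Klf9-OE alone are common over the whole table.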

How the results depend on the processing

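No paired analysis was possible because each condition has 1 library, which also leaves no replicate to leave out. With a ratio of 1.5 in place of 2, 1 gene was higher (Id4) and 1 lower (Bmp2). Among genes with the RefSeq model in both libraries, a choice made after the data were seen, 0 of the 10 genes were apart and higher, since no Id gene has that model in both, and Bmp2, Smad1 and Smad5 were still apart and lower. Bmp2 lost its separation under the same sum, a median ratio of 1 and the widened Klf9-OE interval, which left 2 lower genes. The median log2 fold change of the Id genes ranged from 0.53 to 0.59 and that of the 10 genes from -0.069 to -0.0073 over the rescalings, pseudocounts and filters. By implied reads they were -0.077 and -0.42. Of 71 values of single genes, 65 moved by less than the width of their intervals. The others all came from implied reads of the named row, an alternative added after the data were seen. It reversed Id1, to -0.996 on the log2 scale, and Id3, to -0.44, and moved Id4 to 0.34, Id2 to 0.29, Bmpr2 to 0.89 and Bmpr1a to -0.68. Bmp2, Bmp4, Smad1 and Smad5 kept their direction under it, at -0.66, -0.44, -0.40 and -0.31. These genes have the RefSeq model in both libraries, where the measures nearly coincide, so this is no separate evidence. The cause of the reversals and moves was not tested. The factors of the rescalings amount to 0.028 to 0.062 on the log2 scale, and less for low RPKM because of the pseudocount. Precision at low RPKM is limited by reads, as for Bmp2 and Bmp4.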
